A study of Mus musculus with 12 samples.

Results

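Inflammasomes are protein platforms that form in the cytosol when a sensor meets a danger signal, and 7 mouse genes of this machinery were followed in the injured spinal cord of mice lacking interleukin-1 alpha or interleukin-1 beta. They were the sensors Aim2, Nlrp3 and Nlrc4, the adaptor Pycard, the inflammatory caspases Casp1 and Casp4, and the pore-forming Gsdmd. The 7 were chosen by gene symbol from 19938 genes with a probe set that carries 1 symbol, and where a gene has several probe sets the brightest over all arrays was to be taken. Each of the 7 had only 1 probe set, so this choice by measured level removed nothing.

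Expression was measured on 12 whole-transcript arrays, 4 for each of 3 groups. The groups were wild-type C57BL/6 mice, mice with a knockout of Il1a and mice with a knockout of Il1b, all on a C57BL/6 background. Every animal, wild type included, had a contusion of the spinal cord at 50 kdyn at an age of 8 to 12 weeks, and 24 h later 6 mm of cord around the lesion was collected, so no uninjured cord stands beside these values. The arrays are biological replicates by their labels, which tie none of them to an animal, so the p-values measure the spread between these arrays. The knockouts were not restricted to a cell type by anything the labels say.

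A sensor that has bound its trigger gathers the adaptor Pycard, also called ASC, which brings Casp1 molecules together until they cleave one another. Active Casp1 cuts the precursors of interleukin-1 beta and interleukin-18 and also Gsdmd, whose freed fragment makes pores in the plasma membrane and can end in the lytic death called pyroptosis. Casp4, the mouse gene also known as Casp11, cleaves Gsdmd after it meets bacterial lipopolysaccharide in the cytosol. Interleukin-1 alpha needs no Casp1 cleavage to be active, and both cytokines signal through the same receptor. After a contusion of the cord, inflammasome components are known from microglia, neurons and the leukocytes that enter the lesion.

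In RefSeq's annotation of GRCm38.p6 Aim2 lies at chr1:173349547-173466040, Nlrp3 at chr11:59541569-59566955, Nlrc4 at chr17:74426255-74459144 and Pycard at chr7:127991373-127993867. Casp1 (chr9:5298517-5307281) and Casp4 (chr9:5308849-5336791) are next to each other, and Gsdmd lies at chr15:75862144-75867408. The build of the array's own probe annotation is not given in the sources used here. The 250 bases before the start site were read from RefSeq for the members that had an entry, 6 of 7, with Casp4 and Nlrp3 having 2 starts each. Those of Aim2 and Pycard are shown because they are the members whose groups of arrays stood apart in the results that follow. The Aim2 start lies inside the longer span of the gene (chr1:173420354-173420603, plus strand), and the Pycard window is chr7:127993868-127994117, minus strand. Both are printed 5′ to 3′ along the gene, and the capitals mark the purine-rich motif GAGGAAGT, of the kind bound by ETS factors, or its reverse complement. It lies 113 to 106 bases before the start of Aim2 and 44 to 37 bases before that of Pycard.

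Aim2: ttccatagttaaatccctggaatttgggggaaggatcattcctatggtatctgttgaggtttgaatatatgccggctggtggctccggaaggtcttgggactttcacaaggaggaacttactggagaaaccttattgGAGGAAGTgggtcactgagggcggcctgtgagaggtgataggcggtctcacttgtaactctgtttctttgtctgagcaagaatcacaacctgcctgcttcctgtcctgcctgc

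Pycard: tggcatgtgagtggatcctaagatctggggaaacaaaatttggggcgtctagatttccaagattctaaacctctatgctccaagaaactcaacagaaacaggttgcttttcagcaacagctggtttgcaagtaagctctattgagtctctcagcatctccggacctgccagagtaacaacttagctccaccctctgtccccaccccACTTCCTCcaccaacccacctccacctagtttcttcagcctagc

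GAGGAAGT was found on either strand in 2 of the 6 members with a window, Aim2 and Pycard, and in 2.44% of 32851 RefSeq promoter windows of the same length. The shares count windows, while a member counts once if any of its windows has the motif. The 6 members have 8 windows, so counts and shares are not in the same unit. Its shorter forms were common, GAGGAA in 23.3% of windows and in 4 members, and AGGAAG, which overlaps it, in 29.5% and in 5. An interferon response element, written as 2 copies of GAAA with 2 bases between them, was in 2.98% of windows and in none of the members, and its stricter form, with C as the first of those bases, in 0.569% and none. The STAT motif TTCNNNGAA (7.02% of windows) and the strict NF-kB motif, GGGAC followed at once by TTTCC (0.14%), were likewise in none of these windows. The loose NF-kB motif, GGG and CC with 5 bases between them, was in 45.8% of windows and in Casp1, Casp4 and Nlrp3. The C/EBP motif TTGCNNAA was in 9.56% and in Nlrc4 and Pycard. The 9 motifs were chosen after the values had been seen, and a match describes the letters of a window and is not a measured site.

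Levels are log2 probe-set values, on which a difference of 1 is a doubling of signal, and a probe set's level can be set against the same probe set on other arrays but not against another gene's. The mean level of the members lay between the 12.5th percentile of all genes (Nlrc4) and the 45.1st (Pycard), so all 7 gave a signal under the median gene's. Such percentiles rank brightness on the array and not amounts of RNA between genes. Summarised array values compress the differences of dim genes. The targeted genes checked the labels first. Il1b read 7.68 to 8.06 on the wild-type arrays, 7.96 to 8.18 in the Il1a KO and 6.19 to 6.63 in the Il1b KO. Il1a read 5.74 to 6.22, 4.87 to 5.03 and 4.85 to 5.31 in the same order, below wild type in both knockouts. The defining markers of cord tissue were bright on every array, with mean levels of 10.8 to 10.9 for 7 neuronal genes and 11.1 to 11.2 for 6 astrocyte genes. One array stood apart in sex-linked genes: Il1a KO replicate 1 read 6.47 for Xist, against 11.9 to 12.2 on the other arrays. It read 9.15 for the Y-linked Eif2s3y, against 3.65 to 3.94 on the others. That is a male pattern on this array and a female pattern on the rest, and the labels give no sex.

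**Figure D1:**
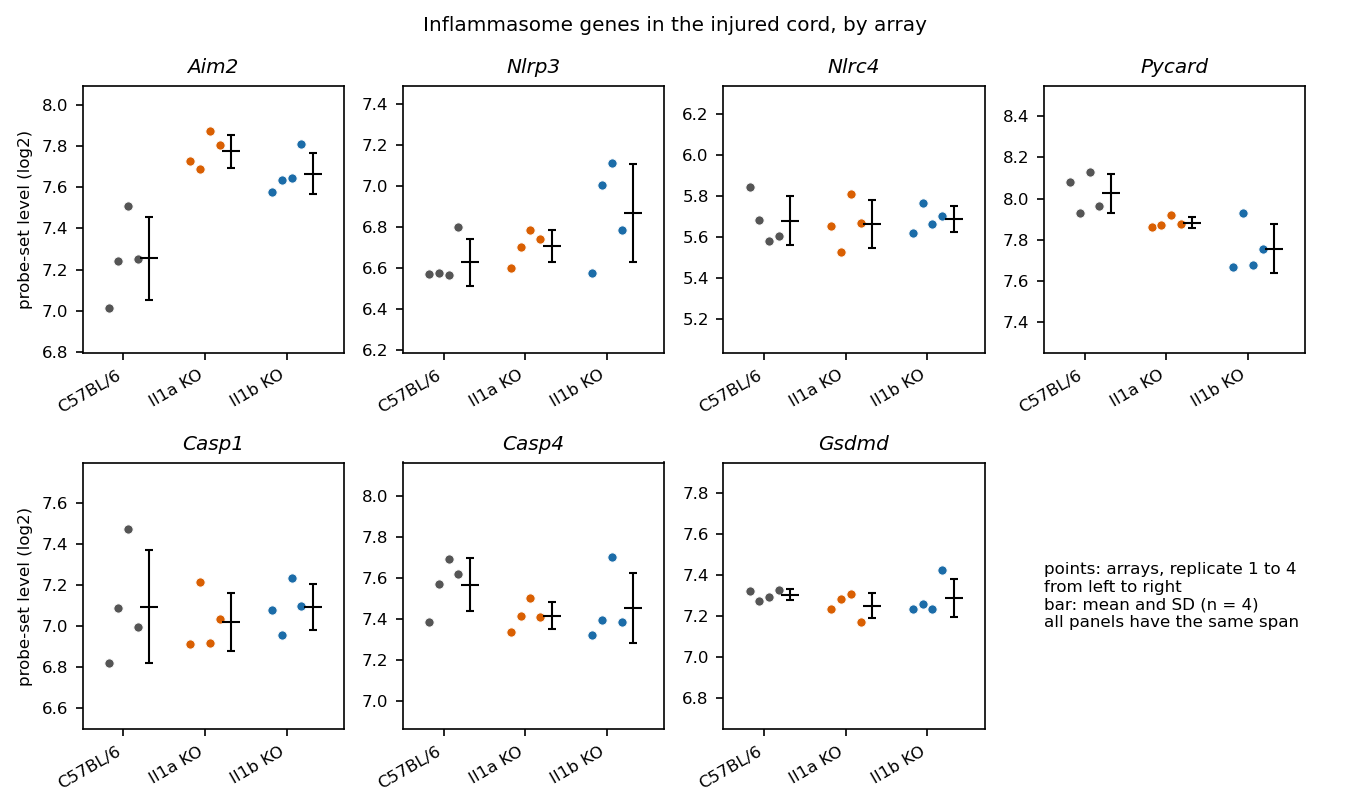
Log2 level of the 7 inflammasome genes on each of 12 arrays (points, replicate 1 to 4 from left to right) with the mean and SD of each group (n = 4); each panel has its own centre and the same span. Aim2 is the gene whose wild-type arrays (7.01 to 7.51) all lie below those of both knockouts.

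Aim2, the sensor of double-stranded DNA in the cytosol, was the member that rose, and it was higher in both knockouts than in wild type. The wild-type arrays read 7.01, 7.24, 7.51 and 7.25 in the order of their replicate numbers. The Il1a KO arrays read 7.73, 7.69, 7.87 and 7.81, and the Il1b KO arrays 7.58, 7.63, 7.65 and 7.81. Every knockout array was therefore above every wild-type array, and the wild-type arrays were the most spread of the 3 groups (SD 0.202, against 0.0814 in the Il1a KO and 0.100 in the Il1b KO, n = 4 each).

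Groups were compared with limma in 1 model of all 12 arrays, with p-values adjusted by Benjamini and Hochberg's method across all 19938 genes. Aim2 was 0.52 (SE 0.0869, 95% interval 0.33 to 0.71) higher in the Il1a KO on the log2 scale, which is 1.43-fold, with an adjusted p of 0.031. In the Il1b KO it was 0.41 higher (0.23 to 0.60), 1.33-fold, with an adjusted p of 0.0486. An exact permutation test of 4 arrays against 4 gave a two-sided p of 0.0286 in either comparison, the smallest that this design allows. Both comparisons use the same 4 wild-type arrays, so they are not 2 independent readings, and the rise in the Il1a KO was known when these genes were chosen, so its p is not independent evidence. The levels ran in the order wild type, Il1b KO, Il1a KO. The knockouts overlapped and differed by 0.11 (-0.08 to 0.30, adjusted p = 0.833).

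The size of the Aim2 difference held better than its call. With each array left out in turn, the difference in the Il1a KO stayed between 0.44 and 0.61, but 6 of 8 such fits had an adjusted p above 0.05, up to 0.137. The call stood without wild type replicate 1 (adjusted p = 0.0378) and without wild type replicate 3 (adjusted p = 0.0055). In the Il1b KO the difference stayed between 0.33 and 0.50 and the call was lost in 7 of 8 fits, with an adjusted p up to 0.147. It stood without wild type replicate 3 (adjusted p = 0.006). In a fit of only the 8 arrays of the groups compared, the adjusted p was 0.126 in the Il1a KO and 0.163 in the Il1b KO. Without Il1a KO replicate 1, the array that stood apart in sex-linked genes, Aim2 was 0.54 higher in the Il1a KO with an adjusted p of 0.0925.

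Cell-type markers were read beside Aim2, since a tissue level cannot tell fewer cells of a type from less RNA per cell. The mean over 12 neutrophil markers, which include S100a8 and Ly6g, was 7.47 to 7.81 on the wild-type arrays, 7.18 to 7.48 in the Il1a KO and 7.04 to 7.70 in the Il1b KO. Of the 12, all had lower means in the Il1a KO and 10 in the Il1b KO, and the only one past the threshold was Ly6g, which fell by 0.55 in the Il1b KO (adjusted p = 0.0087). The mean over 9 monocyte and macrophage markers was 8.84 to 9.08, 8.62 to 8.85 and 8.76 to 9.07 in the same order, with none past the threshold. Of these 9, 7 had lower and 2 higher means in the Il1a KO, and 5 lower and 4 higher in the Il1b KO. Their single differences from wild type ran from -0.82 to 0.12 in the Il1a KO and from -0.46 to 0.50 in the Il1b KO. The mean over 8 microglial markers was 8.31 to 8.50, 8.45 to 8.56 and 8.36 to 8.44. Of these 8, none passed against wild type, and Gpr34 passed between the knockouts, 0.31 higher in the Il1a KO (adjusted p = 0.0299). The groups of arrays did not overlap for 2, 2 and 3 of the 8 in the Il1a KO, in the Il1b KO and between the knockouts. The shares of all genes were 5.06%, 7.0% and 7.24%. In the same order it was 3, 1 and 0 of 12 neutrophil markers and 3, 1 and 2 of 9 monocyte and macrophage markers. For T, B and NK cells it was 0, 0 and 1 of 7, for oligodendrocytes 3, 2 and 0 of 5, and for skeletal muscle 1, 0 and 0 of 4. Of the 8 microglial markers, 4 had higher and 4 lower means in the Il1a KO than in wild type. In the Il1b KO 7 had lower means and only Fcrls a higher one. Fcrls had all arrays of both knockouts above all of wild type, as Aim2 did, with differences of 0.27 in the Il1a KO (adjusted p = 0.298) and 0.34 in the Il1b KO (adjusted p = 0.0636). The mean over 7 markers of T, B and NK cells was 5.65 to 5.89, 5.73 to 5.82 and 5.70 to 5.87. The mean over 5 oligodendrocyte genes was 11.5 to 11.6 in wild type, 11.7 to 11.9 in the Il1a KO and 11.6 to 11.8 in the Il1b KO, and all 5 had higher means in both knockouts without passing the threshold. Over 4 skeletal muscle genes it was 7.08 to 7.46, 7.08 to 7.12 and 6.99 to 7.18. The part of these markers in the levels of Aim2 or of the other members was not tested.

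Nlrp3, the sensor that answers potassium efflux, crystals and extracellular ATP, did not pass the threshold in any comparison. The wild-type arrays read 6.57, 6.57, 6.56 and 6.80. The Il1a KO arrays read 6.60, 6.70, 6.79 and 6.74, and the Il1b KO arrays 6.57, 7.004, 7.11 and 6.79. Of the Il1b KO arrays 2 were above all of wild type, 1 was just under its highest array, and the lowest was among the low wild-type ones. The difference was 0.24 in the Il1b KO (0.03 to 0.45, adjusted p = 0.323) and 0.08 in the Il1a KO (-0.13 to 0.29, adjusted p = 0.927). Between the knockouts it was -0.16 (-0.37 to 0.05, adjusted p = 0.755).

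Nlrc4, which assembles with NAIP proteins on bacterial flagellin and secretion systems, read 5.85, 5.68, 5.58 and 5.61 in wild type, 5.65, 5.53, 5.81 and 5.67 in the Il1a KO, and 5.62, 5.77, 5.66 and 5.70 in the Il1b KO. All 3 groups overlapped. The intervals of its differences were among the narrower ones, -0.16 to 0.13 in the Il1a KO and -0.14 to 0.15 in the Il1b KO. A difference in array level of the size seen for Aim2 lies outside them. Nlrc4 was the dimmest member (12.5th percentile) and array values compress differences of dim genes, so the size of a change in its RNA was not tested. The adjusted p was 0.992 and 0.97, and 0.966 between the knockouts.

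Pycard, the adaptor that joins Aim2, Nlrp3 and Casp1, had lower means in both knockouts. The wild-type arrays read 8.08, 7.93, 8.13 and 7.97. The Il1a KO arrays read 7.86, 7.87, 7.92 and 7.88, and the Il1b KO arrays 7.67, 7.93, 7.68 and 7.75. In the Il1a KO all arrays were below the wild-type ones, by less than 0.01 at the closest. In the Il1b KO 3 of the 4 were below them, and replicate 2 read the same as the lowest wild-type array to the second decimal.

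Neither difference of Pycard passed the threshold. It was -0.27 in the Il1b KO (-0.40 to -0.14), which is 1.21-fold lower, with an adjusted p of 0.0648 in limma and a two-sided exact permutation p of 0.0571. Without Il1b KO replicate 2 it was -0.33 with an adjusted p of 0.0117, and the call also appeared under 3 other settings, with adjusted p between 0.0152 and 0.0475. Without the 3 arrays farthest along the first principal component the difference was -0.16 (adjusted p = 0.476). In the Il1a KO the difference was -0.14 (-0.28 to -0.01, adjusted p = 0.541). Between the knockouts it was 0.13 (-0.01 to 0.26, adjusted p = 0.671).

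Casp1, the protease at the centre of the canonical pathway, varied more among wild-type arrays than between groups. The wild-type arrays read 6.82, 7.09, 7.47 and 6.998 (SD 0.276), the Il1a KO arrays 6.91, 7.21, 6.92 and 7.03, and the Il1b KO arrays 7.08, 6.96, 7.23 and 7.10. Both the lowest and the highest of the 12 were wild type. The difference was -0.08 in the Il1a KO (-0.33 to 0.18, adjusted p = 0.95) and -0.003 in the Il1b KO (-0.25 to 0.25, adjusted p = 0.995).

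Casp4, the caspase of the non-canonical pathway, read 7.39, 7.57, 7.69 and 7.62 in wild type. It read 7.34, 7.41, 7.50 and 7.41 in the Il1a KO and 7.32, 7.39, 7.70 and 7.39 in the Il1b KO. The third Il1b KO array was the highest of all 12, while the remaining knockout arrays lay at 7.50 or lower. The difference was -0.15 in the Il1a KO (-0.33 to 0.03, adjusted p = 0.698) and -0.12 in the Il1b KO (-0.29 to 0.06, adjusted p = 0.589).

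Gsdmd, the executor of pyroptosis, had the smallest SE of a difference among the members (0.0489). It read 7.32, 7.27, 7.29 and 7.33 in wild type (SD 0.0270). The Il1a KO arrays read 7.23, 7.28, 7.31 and 7.17, and the Il1b KO arrays 7.23, 7.26, 7.23 and 7.42. The groups overlapped, and the array farthest from the others was Il1b KO replicate 4. The difference was -0.05 in the Il1a KO (-0.16 to 0.05, adjusted p = 0.879) and -0.02 in the Il1b KO (-0.12 to 0.09, adjusted p = 0.928).

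**Figure D2:**
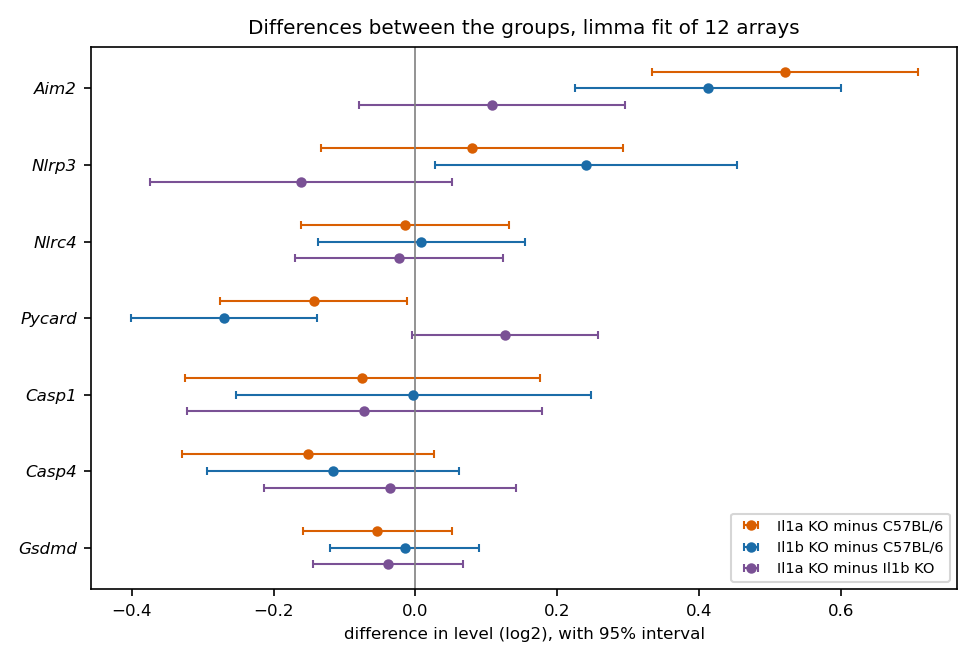
Difference in log2 level between the groups for each inflammasome gene (points) with its 95% interval (bars), from a limma fit of 12 arrays. The intervals of Aim2 against wild type lie above 0 (0.33 to 0.71 and 0.23 to 0.60), as does that of Nlrp3 in the Il1b KO (0.03 to 0.45). Those of Pycard against wild type lie below it (-0.28 to -0.01 in the Il1a KO and -0.40 to -0.14 in the Il1b KO), and those of Nlrc4, Casp1, Casp4 and Gsdmd span 0 in all 3 comparisons.

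Counted as a set, 1 of 7 members was past the threshold in the Il1a KO, where 0.171% of all genes were, and 1 of 7 in the Il1b KO, where 0.813% were. Between the knockouts 0 of 7 passed in limma, against 0.652% of all genes. At an unadjusted limma p under 0.05 were Aim2 and Pycard in the Il1a KO, Aim2, Nlrp3 and Pycard in the Il1b KO, and no member between the knockouts. The share of all genes at that p was not counted. The groups of arrays did not overlap in 2 of 7 members for the Il1a KO (5.06% of all genes), in 1 of 7 for the Il1b KO (7.0%) and in 0 of 7 between the knockouts (7.24%). The median difference of the members was -0.05, -0.003 and -0.04 in the 3 comparisons, and that of all genes lay within 0.01 of 0. Aim2 was the member called in both comparisons with wild type. Its rise in the Il1a KO was known when the genes were chosen, and both comparisons share the wild-type arrays. The counts of calls against wild type are therefore not independent of that choice and give no test of the set.

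The machinery around the members was read from 7 lists with 73 genes, of which 60 were measured by a probe set with 1 symbol. In the Il1a KO 0 of the 60 passed the threshold in limma, beside 0.171% of all genes. In the Il1b KO 1 of 60 passed, Naip5, which was lower, beside 0.813% of all genes. Between the knockouts Naip5 alone passed, beside 0.652% of all genes. The groups of arrays did not overlap for 1, 6 and 5 of the 60 in the 3 comparisons, against 5.06%, 7.0% and 7.24% of all genes. The median difference over the 60 was -0.03, -0.05 and 0.02 in the 3 comparisons. The lists were drawn up with earlier results of these data known.

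**Figure D3:**
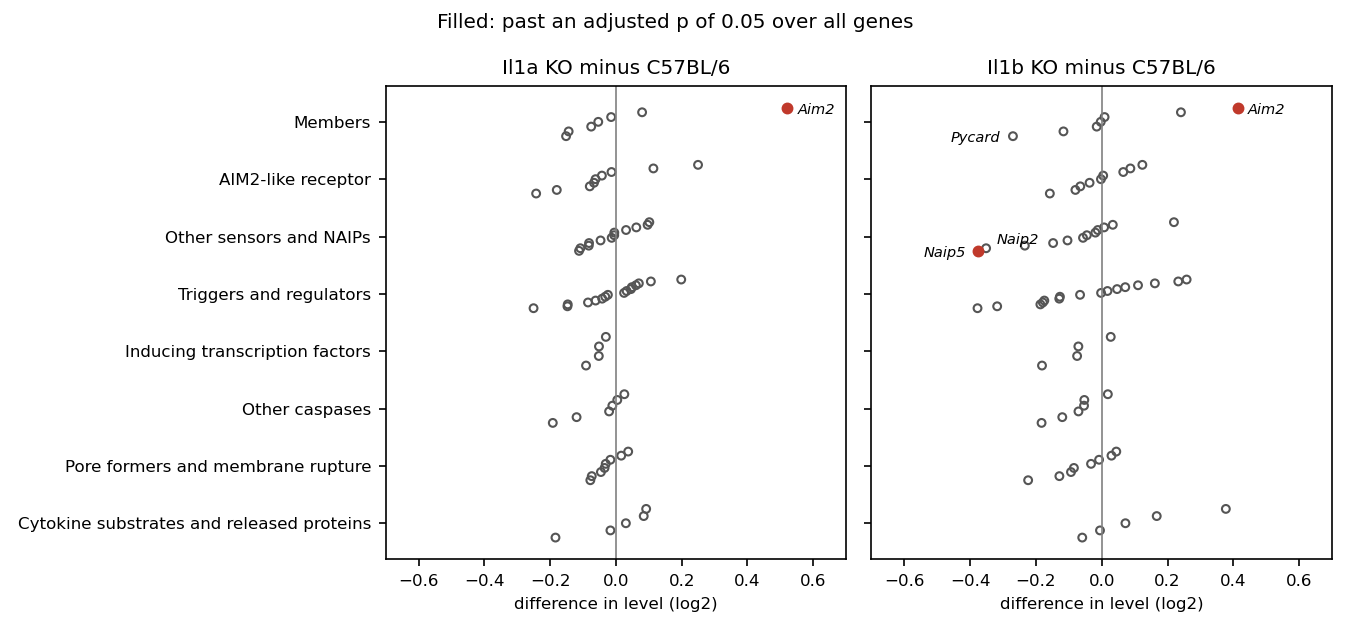
Difference in log2 level from wild type for the 7 members and the 60 measured genes of 7 inflammasome lists, 1 point per gene, in the Il1a KO (left) and the Il1b KO (right); filled points passed an adjusted p of 0.05 over all genes. Aim2 is filled in both panels (0.52 and 0.41) and Naip5 in the right one (-0.38).

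Naip5 encodes the receptor that binds flagellin and then recruits Nlrc4, and it fell in the Il1b KO, where Nlrc4 itself did not pass the threshold. In RefSeq it lies on chr13:100211735-100250930, between Naip2 (chr13:100144063-100202122) and Naip6 (chr13:100281121-100316616). The wild-type arrays read 6.31, 6.42, 6.26 and 6.40, and the Il1a KO arrays 6.24, 6.40, 6.39 and 6.31. The Il1b KO arrays read 5.89, 5.99, 6.07 and 5.94, all below the other 8 arrays.

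Naip5 was 0.38 lower in the Il1b KO than in wild type (difference -0.38, -0.49 to -0.26), which is 1.297-fold, with an adjusted p of 0.00328. It was 0.36 higher in the Il1a KO than in the Il1b KO (0.25 to 0.48, adjusted p = 0.00434). The call against wild type stood in 8 of 8 fits that left out 1 array, with an adjusted p of 0.0031 to 0.017, and so did the call between the knockouts (0.0048 to 0.0246). In the Il1a KO the difference from wild type was -0.01 (-0.13 to 0.10, adjusted p = 0.991). Naip5 was dim, at the 18.2nd percentile of mean levels.

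Naip2, the neighbouring gene, whose product senses the rod protein of bacterial secretion systems, read 7.34, 7.54, 7.52 and 7.45 in wild type and 7.23, 7.43, 7.42 and 7.46 in the Il1a KO. The Il1b KO arrays read 7.22, 6.93, 7.27 and 7.04, all below wild type. The difference of -0.35 missed the threshold in limma (adjusted p = 0.0585), and 2 of 8 fits that left out 1 array passed it. Naip6, on the other side, differed by -0.15 in the Il1b KO (-0.34 to 0.04, adjusted p = 0.512). The NAIP genes are near-identical copies, so how much of a signal belongs to which of them is uncertain.

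**Figure D4:**
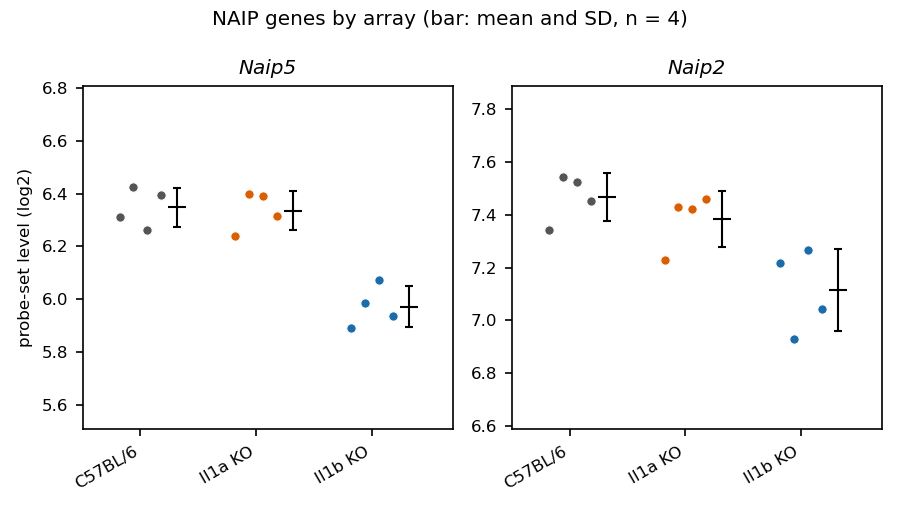
Log2 level of Naip5 (left) and Naip2 (right) on each array (points, replicate 1 to 4 from left to right), with the mean and SD of each group (n = 4). The Il1b KO arrays of Naip5 (5.89 to 6.07) lie below the other 8 (6.24 to 6.42), while those of Naip2 (6.93 to 7.27) overlap the lowest Il1a KO array at 7.23.

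None of the measured relatives of Aim2, a family of DNA-binding proteins encoded beside it, passed the threshold. Of 14 listed AIM2-like receptors 9 were measured, 0 passed in limma in any comparison, and 0 had an unadjusted p under 0.05. Their median difference was -0.06 in the Il1a KO, and 7 of 9 had a lower mean there than in wild type. Of all genes 50.2% had a higher mean in that comparison. In the Il1b KO the median was -0.002, with 5 of 9 lower and 4 higher. Ifi206, the next measured gene along chromosome 1, differed by -0.18 in the Il1a KO (adjusted p = 0.846). Cadm3, an adhesion molecule and the gene on the other side, differed by 0.08 in the Il1a KO and by 0.11 in the Il1b KO (adjusted p = 0.293). The nearest measured genes on either side of the members numbered 12, leaving aside Casp1 and Casp4 as neighbours of each other. Of these 0 passed the threshold in limma in any comparison, which is again close to the shares of all genes. Only Cadm3 in the Il1b KO had an unadjusted p under 0.05. Casp12, which follows Casp4, differed by -0.01 and -0.05 from wild type in the Il1a and Il1b KO.

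Among triggers and regulators 16 of 17 were measured and 0 passed in limma in the Il1a KO, in the Il1b KO or between the knockouts. Of all genes 0.171%, 0.813% and 0.652% passed in the same order, so 0 of 16 is close to those shares. At an unadjusted limma p under 0.05 were 1, 4 and 6 of the 16. The share of all genes at that p was not counted. P2rx7, the ATP-gated channel whose opening lets potassium out and triggers Nlrp3, read 9.03 to 9.24 in the Il1b KO and 9.28 to 9.42 in wild type, a difference of -0.18 (adjusted p = 0.222). Panx1, a channel that releases ATP, was -0.17 between the knockouts (adjusted p = 0.174). Txnip, a thioredoxin-binding protein linked to Nlrp3, was -0.41 between the knockouts (adjusted p = 0.186). Serpinb1a, an inhibitor of inflammatory proteases, was 0.20 in the Il1a KO (adjusted p = 0.702).

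Of the transcription factors that induce these genes 4 of 6 were measured and 0 passed. Irf8, which drives Naip genes and Nlrc4 in macrophages, read 8.23 to 8.35 in the Il1b KO and 8.38 to 8.53 in wild type, a difference of -0.18 (adjusted p = 0.196), and was -0.09 in the Il1a KO. Of the other caspases 6 of 8 were measured and 0 passed, beside the same shares of all genes. Casp6, an executioner caspase, was -0.18 in the Il1b KO (adjusted p = 0.166) with no overlap of the arrays, and Casp8, the initiator of death receptor signalling, was -0.19 in the Il1a KO (adjusted p = 0.687).

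Downstream, 8 of 9 listed pore formers and membrane-rupture genes were measured and 0 passed, beside 0.171%, 0.813% and 0.652% of all genes. Gsdme, which forms pores once apoptotic caspases have cut it, was 0.13 higher in the Il1a KO than in the Il1b KO, with no overlap of the arrays (adjusted p = 0.432). Ninj1, which ruptures the membrane after the pores have formed, was -0.05 in the Il1a KO and 0.03 in the Il1b KO. All 5 listed cytokine substrates and released proteins were measured and 0 passed, beside the same shares of all genes. Il18, the second cytokine matured by Casp1, was 0.08 in the Il1a KO (adjusted p = 0.812) and 0.07 in the Il1b KO. Il1rn, the antagonist of the interleukin-1 receptor, was 0.38 in the Il1b KO (adjusted p = 0.198). Il33, an alarmin of the same cytokine family, was -0.18 in the Il1a KO (adjusted p = 0.497).

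The members were also compared with each other across the 12 arrays. Of 21 pairs 0 passed an adjusted p of 0.05 by Pearson's r, with 2 at an unadjusted p under 0.05, and by Spearman's rho 0 passed at either level. Nlrc4 and Casp1 ran opposite, with r = -0.696 and rho = -0.573 (permutation p of r 0.0119, adjusted 0.25), and r was -0.526 without the 2 arrays farthest from the median of Nlrc4. Casp1 and Casp4 ran together, with r = 0.593 and rho = 0.497 (permutation p of r 0.0398, adjusted 0.418), and r was 0.34 without the 2 farthest arrays. Aim2 and Pycard, whose group means differed in opposite directions, had r = -0.501 over all arrays (adjusted permutation p = 0.674) and 0.211 for the deviations from the group means.

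The first principal component of all genes carried 33.0% of the variance between arrays, and the scores of the 3 groups overlapped. At its ends were wild type replicate 1 (score 20.2) on one side and wild type replicate 3 (-10.2) and Il1b KO replicate 3 (-13.6) on the other. Casp1 followed it with r = -0.749 (permutation p = 0.00638, adjusted over the 7 members 0.0447) and rho = -0.769 (adjusted permutation p = 0.0334). Without the 2 arrays farthest from the median score r was -0.671. The other 6 members had adjusted permutation p of 0.213 or more by r. Their r depended on the same 2 arrays. Without them it went from -0.174 to 0.728 for Nlrp3, from -0.453 to 0.060 for Aim2 and from 0.553 to 0.323 for Nlrc4. For Pycard it went from 0.499 to 0.026, for Casp4 from -0.422 to -0.128 and for Gsdmd from 0.127 to -0.209. Wild type replicate 1 was also the lowest wild-type array for Aim2 and Casp4, and wild type replicate 3 the highest. Without the 3 arrays at the ends Aim2 was 0.53 higher in the Il1a KO (adjusted p = 0.0262) and 0.43 higher in the Il1b KO (adjusted p = 0.0483).

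**Figure D5:**
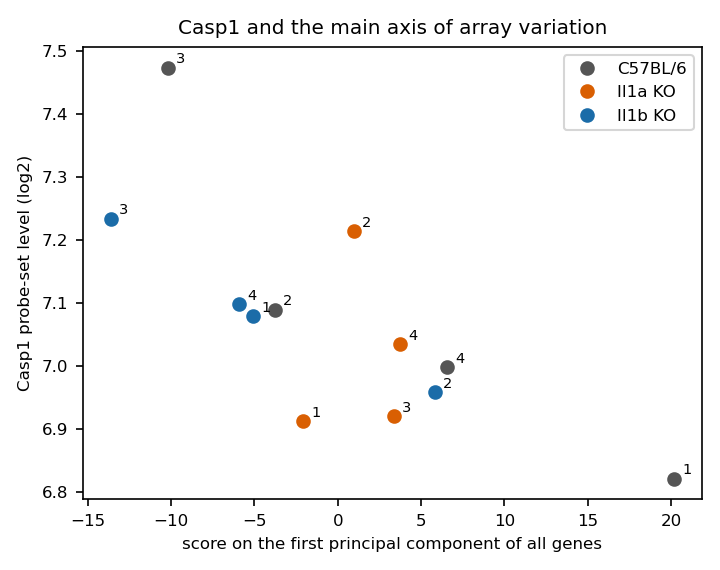
Log2 level of Casp1 on each of 12 arrays against the array's score on the first principal component of all genes (no unit), coloured by group and numbered by replicate. The level falls from wild type replicate 3 (7.47, score -10.2) to wild type replicate 1 (6.82, score 20.2).

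The genes with the pattern most like each member were taken as the 3 with the highest Pearson r over the 12 arrays, as a description. For Aim2 they were Kctd9 (r = 0.922), Ubqln2, a ubiquitin-binding shuttle protein (0.916), and Camk1d, a calcium-dependent kinase (0.898). Within groups, with the group means taken out, these were 0.83, 0.648 and 0.713. For Nlrp3 they were Il11, a cytokine of the interleukin-6 family (0.931), Entpd1, which degrades extracellular ATP (0.922), and Il10ra, a subunit of the interleukin-10 receptor (0.910). For Nlrc4 they were Ramp3 (0.912), Adam39 (0.901) and Pnpla3 (0.899).

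For Pycard the nearest were Olfr1156, an olfactory receptor (0.927), Vmn1r11, a vomeronasal receptor (0.927), and Umod, a kidney protein (0.891), all at or below the 17.7th percentile of mean levels. For Casp1 they were Mdm2, the ubiquitin ligase of p53 (0.960), Prpf39, a splicing factor (0.942), and Pibf1 (0.938). For Casp4 they were Rnf19b (0.926), Tbrg1 (0.902) and Nckap1l, a blood-cell subunit of an actin regulator (0.899). For Gsdmd the highest was lower than for the others, 0.815 for Dnajc17, followed by Il17rd (0.810) and Aldh3b1 (0.809).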

How the data were processed

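The authors deposited 1 log2 value per probe set and array for 12 arrays. The submitters' processing notes list 4 tools (GCOS 1.4, RMA, limma, Partek) without saying what each did, and that the values are RMA summaries was inferred from this list and their range, 2.97 to 14.4 with array medians of 7.67 to 7.72. RMA evens out the probe distributions of arrays before probes are summarised, so a shift of all genes would largely be removed, and it compresses differences of dim genes. The deposited gene values do not share exactly 1 distribution. Scans and detection calls were not used here. Of 35557 probe sets, 21789 had 1 gene symbol in the platform annotation and gave 19938 genes, the brightest probe set standing for the 999 genes with several. Probe sets with several symbols (1621) or none listed (12147) were left out. Symbols and positions came from RefSeq on GRCm38.p6 by Entrez identifier (19856 genes).

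Comparisons used limma 3.58.1 (R 4.3.3), with 1 mean per group over all 12 arrays, moderated statistics without a trend, two-sided, Benjamini-Hochberg adjustment over all genes and 0.05 as threshold. The fit was tested on simulated data. Correlations had 100000 permutations. Arrays have no counts, and their number limits the precision. Samples were grouped by their labels.

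The members and lists were chosen with earlier results of these data known. Named genes were the members, the targeted genes, in each list those past the threshold and the 2 with the smallest p in each comparison, for each member the 3 genes most like it and its nearest measured neighbours. Single cell-type markers (Ly6g, Gpr34, Fcrls) were named after their values were seen. Alternatives were a fit of 2 groups, a replicate block, a trend, array weights, renewed quantile normalization, the dimmest 25% of genes left out, the mean of all probe sets, and each array left out. Leaving out the 3 arrays at the ends of the first principal component was added after seeing the data.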

Additional observations from a re-analysis of the deposited data

Results flagged for a closer look

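In 102 combinations of a gene and a group of 4 arrays, 8 had 1 array far from the other 3 by Dixon's criterion, which chance meets in about 1 in 20 groups. Of these, 2 concerned members. Nlrp3 read 6.80 on wild type replicate 4 and at most 6.57 on the other wild-type arrays. Gsdmd read 7.42 on Il1b KO replicate 4 and at most 7.26 on the others. Among the other named genes, Il1a read 6.22 on wild type replicate 1, Rela, a subunit of NF-kB, 10.5 on wild type replicate 3, Gsdmc 4.90 and Il18 8.32 on Il1a KO replicate 2, and Naip2 7.23 and Txnip 9.34 on Il1a KO replicate 1. The first 2 of these were high and the last 4 low. Il1a KO replicate 1 is also the array that stood apart in Xist.

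The knockouts differed from each other, by the limma contrast between them, in 2 named genes. Il1b was 1.66 higher in the Il1a KO than in the Il1b KO (adjusted p = 5.98e-07), which is the targeted gene. Naip5 was 0.36 higher (adjusted p = 0.00434), higher in 4 of 4 Il1a KO arrays than in any Il1b KO array.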

How the results depend on the processing

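The numbers of genes past the threshold, 34 in the Il1a KO, 162 in the Il1b KO and 130 between the knockouts, moved most. They were 15 and 85 against wild type when only the 2 groups compared were fitted, 72 and 303 with a trend, 306, 1145 and 244 with array weights, and 21 and 73 without the 3 arrays at the ends of the first principal component. Leaving out 1 array gave 18 to 49, 106 to 177 and 88 to 119. The split in the Il1b KO was 84 higher and 78 lower. Higher calls prevailed with a trend (202 and 101), array weights (749 and 396) and without dim genes (135 and 80). Lower calls prevailed with only the 2 groups (32 and 53), the replicate block (50 and 70), renewed quantile normalization (68 and 84), without the 3 arrays (30 and 43) and in 6 of 8 fits with 1 array left out. The replicate numbers did not pair the arrays (correlations of same-numbered arrays from -0.374 to 0.441). With them as a block 26, 120 and 105 genes passed, Aim2 had adjusted p of 0.0229 and 0.0301, Pycard 0.17 in the Il1b KO, and Txnip passed between the knockouts (-0.41, adjusted p = 0.018).

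Aim2 missed the threshold with only the 2 groups fitted (0.52, adjusted p = 0.126; 0.41, adjusted p = 0.163) and, in the Il1b KO, after renewed quantile normalization (0.44, adjusted p = 0.0552). Pycard passed it in the Il1b KO with a trend (-0.27, adjusted p = 0.0475), array weights (-0.25, adjusted p = 0.0152) and without dim genes (-0.27, adjusted p = 0.043). The cause was not tested. Differences near 0 changed sign. With array weights Nlrp3 was -0.014 and Nlrc4 0.030 in the Il1a KO, Casp1 0.064 in the Il1b KO and Casp4 0.0064 between the knockouts. With renewed normalization Nlrc4 was 0.00855 in the Il1a KO, and Casp1 0.033 and Gsdmd 0.012 in the Il1b KO. Without the 3 arrays Nlrc4 was 0.020 in the Il1a KO, Casp1 0.0017 and Gsdmd 0.0066 in the Il1b KO, and Casp4 0.049 between the knockouts. Leaving out 1 array gave for Aim2 0.44 to 0.61 and 0.33 to 0.50 against wild type and for Pycard -0.33 to -0.24 in the Il1b KO. For Nlrc4 it gave -0.063 to 0.041, -0.024 to 0.064 and -0.072 to 0.023 in the 3 comparisons, for Casp1 -0.17 to 0.051 and -0.094 to 0.12 against wild type, for Casp4 -0.078 to 0.049 between the knockouts, and for Gsdmd -0.061 to 0.0031 in the Il1b KO and -0.058 to 0.0071 between the knockouts.

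Of the other named genes, Gsdme was 0.11 in the Il1b KO with the mean of its probe sets, Ifi202b in the Il1a KO 0.025 with array weights and 0.031 without the 3 arrays, Ifi208 in the Il1b KO 0.066 and 0.016, and Naip5 in the Il1a KO 0.00175 with renewed normalization and -0.041 to 0.019 with 1 array left out. Naip2 passed in the Il1b KO with a trend, array weights and without dim genes (adjusted p 0.0177 to 0.04), and Casp6 with array weights (-0.23). Il1a in the Il1b KO missed it without the 3 arrays (-0.63). Naip5 was among the dim genes left out and has no value there. No pair of members passed under any setting tried.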
